A study of Mus musculus with 6 samples.

Results

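The septins are a family of GTP-binding proteins that assemble into filaments beside actin and microtubules, and 9 septin genes were followed in mouse melanoma tumors from vehicle-treated and rigosertib-treated mice. Spreadsheet software had turned the names of these genes into dates in the deposited table (7-Sep stands for Sept7), and 26 of the 40166 gene rows carried such a name. All 13 septin rows were matched by Ensembl identifier to a Sept gene of the GENCODE M21 annotation, and all 13 had the same start and end there (GRCm38). The 9 genes described here (2-Sep, 4-Sep, 5-Sep, 6-Sep, 7-Sep, 8-Sep, 9-Sep, 10-Sep and 11-Sep) were chosen by family name and on their counts, with the treatment differences already known. The other 4 rows (1-Sep, 3-Sep, 12-Sep and 14-Sep) had lower maximum counts, and just inside this limit 2-Sep had 7 to 99 counts per tumor, while just outside it 1-Sep had 12 to 40.

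Rigosertib (RGS), a small molecule described as a RAS mimetic, was given at 300 mg/kg by oral gavage on 5 days a week, and vehicle mice received water. All tumors grew from YUMM3.3 cells, a BRAF-mutant mouse melanoma line, injected under the skin of C57BL/6 mice, and were collected after 17 days of treatment, 3 in each group (replicates 7, 8 and 9 with vehicle and 10, 11 and 12 with RGS). The methods describe young adult mice of either sex for the tumor experiments, and the labels do not give the age or sex behind each library or say whether each tumor came from its own mouse, so p-values measure the spread between these samples. The 3 tumors of a group share 1 cell line.

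Septins build hetero-oligomers in which the proteins of each subgroup take a fixed place. SEPT7 is alone in its subgroup and is part of every canonical complex, SEPT9 (of the SEPT3 subgroup) sits at the centre of octamers and is missing from hexamers, and the SEPT2 and SEPT6 subgroups fill the remaining places with interchangeable members. The filaments are known for their role in the cleavage furrow of dividing cells, in holding membrane proteins in place, in secretion and in cell shape and migration.

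Counts per tumor summed to between 22793087 and 32555494 with vehicle and between 13837932 and 21617368 with RGS, so the shallowest vehicle tumor was sequenced deeper than the deepest RGS tumor, and sequencing depth cannot be told apart from treatment. After thinning all libraries to the smallest, the same 4 septins passed the threshold. Mitochondrial genes took 2.13% to 3.20% of the counts with vehicle and 5.60% to 8.22% with RGS. With the mitochondrial genes left out of the fit, the same 4 septins passed the threshold, at log2 fold changes of 1.25 (9-Sep), -1.16 (7-Sep), -2.04 (10-Sep) and -2.44 (4-Sep). Several markers that define cell types of a tumor were at 0 while others of the same lists were abundant. The leukocyte gene Ptprc, the macrophage gene Adgre1, the T cell genes Cd3e, Cd3d and Cd3g and the endothelial gene Emcn had no count in any of the 6 tumors, and neither had the melanocyte genes Dct, Tyr and Mlana. By contrast, means with vehicle and RGS were 176 and 900.2 CPM for Laptm5 and 31.1 and 82.3 CPM for Cd53 (leukocyte list), 62.5 and 74.0 CPM for Cd68 (macrophage list), and 244 and 147 CPM for Col1a2 and 179 and 110.4 CPM for Pdgfra (fibroblast list). These markers do not settle whether the libraries hold host cells beside the YUMM3.3 cells. The label of melanoma tumor tissue could therefore not be checked and is in doubt, and "tumor" is used here as the labels use it. A count of 0 allows up to 3 counts, or between 0.0856 and 0.226 CPM, which are counts divided by a scaled library size, depending on the library, counting error only.

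Of the 9 septin genes, 1 rose and 3 fell in RGS tumors. 9-Sep was 2.37-fold higher, 7-Sep 2.23-fold lower, 10-Sep 4.09-fold lower and 4-Sep 5.40-fold lower, while 2-Sep, 5-Sep, 6-Sep, 8-Sep and 11-Sep did not pass the threshold (edgeR's quasi-likelihood test, Benjamini-Hochberg adjusted p under 0.05 over 15355 genes). All 9 genes passed the filter on low counts in both groups (median count of at least 5, the lowest group median being 7). Among all tested genes 32.8% were called in either direction, 16.3% higher and 16.5% lower, beside 44.4% of the septins (4 of 9). The groups did not overlap for the same 4 septins, and for 45.8% of all tested genes. The median log2 fold change was -0.15 over the 9 septins and -0.05 over all tested genes. In bulk RNA, fewer cells of a type and less RNA per cell cannot be told apart. The plot of septin CPM by tumor shows each value.

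**Figure D1:**
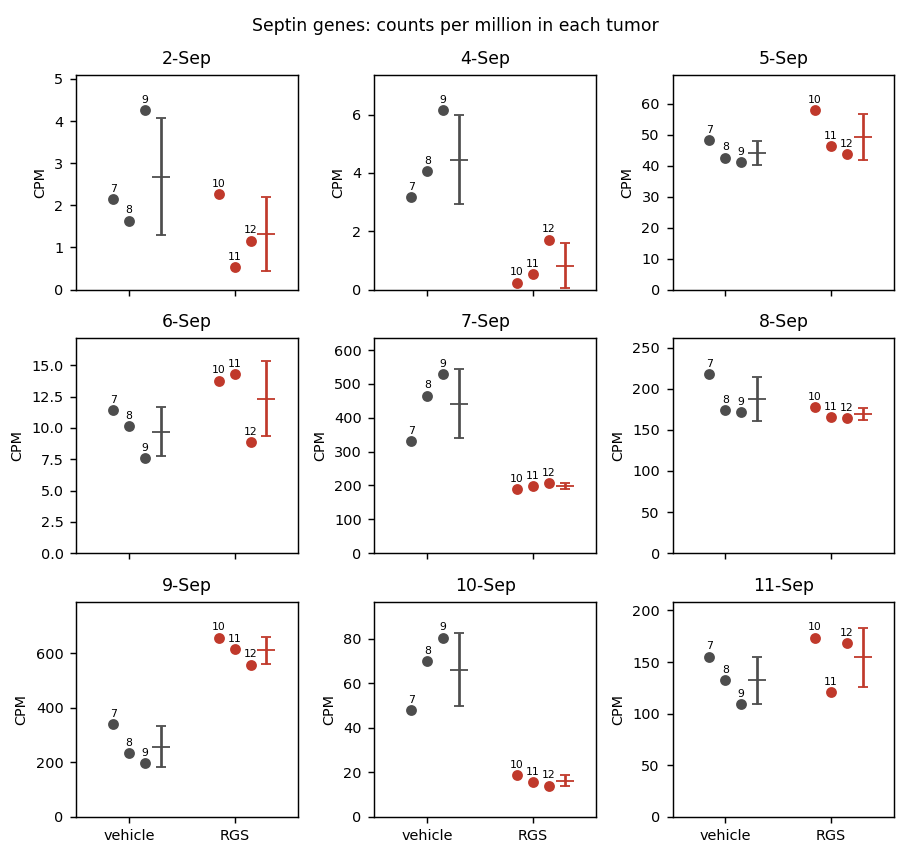
CPM (counts divided by a scaled library size, vertical axis from 0) of the 9 septin genes in each tumor, with the mean and SD beside the points. The 3 vehicle tumors are grey (replicates 7 to 9) and the 3 RGS tumors red (replicates 10 to 12). In 9-Sep all RGS tumors sit above all vehicle tumors, in 4-Sep, 7-Sep and 10-Sep all sit below, and in the other 5 panels the groups overlap.

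7-Sep, the SEPT7 gene (ENSMUSG00000001833.17, chromosome 9 of GRCm38, 25252439 to 25308571, plus strand), had 329.9, 466 and 529 CPM in vehicle replicates 7, 8 and 9. It had 189, 199 and 207 CPM in RGS replicates 10, 11 and 12. The RGS tumors lay close together and below every vehicle tumor, and vehicle replicate 7 was the lowest of its group. The means were 442 ± 102 and 198 ± 9.30 CPM (SD, n = 3 each), and 7-Sep fell by 1.15 on the log2 scale (standard error 0.17, adjusted p = 4.71e-05 from edgeR). A processed pseudogene on the opposite strand, Gm48272, shares 245 of its 11631 exonic bases and had 0 counts in every tumor.

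9-Sep, the SEPT9 gene (ENSMUSG00000059248.13, chromosome 11, 117199661 to 117362325, plus strand), encodes the subunit that binds both actin filaments and microtubules and has several isoforms with different amino termini. Its values were 340.3, 232 and 197 CPM with vehicle and 657, 614 and 558 CPM with RGS. The highest vehicle tumor, replicate 7, was well below the lowest RGS tumor. 9-Sep rose from 257 ± 74.6 to 609.6 ± 49.7 CPM (SD, n = 3 each), a log2 fold change of 1.25 (standard error 0.18, adjusted p = 4.12e-05 from edgeR). The count covers all isoforms, so which start site carried the increase cannot be read from it. The antisense gene Gm16045 lies within its span without sharing an exonic base, at 0 to 3 counts.

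The promoters of these 2 genes are printed because they moved in opposite directions and because 9-Sep has 4 annotated start sites. RefSeq windows (GRCm38.p6) were found for 7 of the 9 genes, and 5-Sep and 6-Sep had none. In the 250 bases before each start site, 6 motifs were searched on both strands, and capitals mark the matches: AP-1 (TGANTCA), the GC box (GGGCGG), the CCAAT box (CCAAT), the E-box (CACGTG), the TATA box (TATAAA) and the cell cycle element CHR (TTTGAA). No printed window overlaps an exon of its gene in GENCODE M21. The 2 printed 9-Sep windows, those of the first and the third start site, were picked after their matches were seen, and the counts of the other 2 are given below them.

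7-Sep, chr9:25251741-25251990, plus strand: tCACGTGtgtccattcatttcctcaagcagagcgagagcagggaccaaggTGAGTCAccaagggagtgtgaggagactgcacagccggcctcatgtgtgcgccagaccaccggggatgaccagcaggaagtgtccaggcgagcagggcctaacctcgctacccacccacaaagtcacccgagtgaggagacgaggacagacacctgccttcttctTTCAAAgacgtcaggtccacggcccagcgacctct
9-Sep, chr11:117199411-117199660, plus strand: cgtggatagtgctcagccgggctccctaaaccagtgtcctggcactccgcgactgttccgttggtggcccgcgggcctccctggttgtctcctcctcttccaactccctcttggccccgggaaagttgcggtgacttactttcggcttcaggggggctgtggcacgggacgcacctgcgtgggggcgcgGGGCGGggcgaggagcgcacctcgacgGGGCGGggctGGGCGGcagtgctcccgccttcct
9-Sep, chr11:117331465-117331714, plus strand: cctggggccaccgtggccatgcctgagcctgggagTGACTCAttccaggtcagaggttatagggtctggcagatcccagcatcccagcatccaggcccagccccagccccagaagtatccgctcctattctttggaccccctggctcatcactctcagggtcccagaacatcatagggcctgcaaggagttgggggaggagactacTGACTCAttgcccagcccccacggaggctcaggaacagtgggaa

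RefSeq has a second 7-Sep start site, whose window overlaps an exon and is not printed. That second window held no match for any of the 6 motifs. The printed 7-Sep window held 1 E-box, 1 AP-1 match and 1 CHR match. The first 9-Sep window held 3 GC boxes and the third 2 AP-1 matches, with no match for the other motifs in either. The window of the second 9-Sep start site held 2 GC boxes and that of the fourth 1 CCAAT box, and neither held an AP-1 match. The 11-Sep window, next to a gene that did not pass the threshold, also held 1 E-box and 1 CHR match. GC boxes were also found in windows of 2-Sep, 4-Sep, 8-Sep and 10-Sep. The window of 10-Sep, which fell, held 3 of them, as did the first 9-Sep window. Over 32817 promoter windows of the same length, an E-box was found in 6.02%, an AP-1 match in 6.75%, a CHR match in 16.0%, a GC box in 32.7%, a CCAAT box in 33.8% and a TATA box in 12.4%. A match describes the letters only.

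The SEPT6 subgroup was led by 8-Sep in both groups, and 10-Sep was its only member to pass the threshold. 10-Sep (ENSMUSG00000019917.10, chromosome 10, 59141627 to 59221847, minus strand) had 48.0, 70.0 and 80.6 CPM with vehicle and 18.8, 15.6 and 14.003 CPM with RGS. All RGS tumors lay far below the lowest vehicle tumor, which was again replicate 7. It fell by 2.03 on the log2 scale (66.2 ± 16.6 to 16.1 ± 2.46 CPM, SD, n = 3 each, standard error 0.22, adjusted p = 1.29e-06 from edgeR), and no exonic base of it is shared with another annotated gene.

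The other 3 genes of this subgroup overlapped between the groups. 8-Sep (chromosome 11, 53519257 to 53549565) had 218, 174 and 171 CPM with vehicle and 178, 165 and 164 CPM with RGS, a log2 fold change of -0.15 (standard error 0.15, adjusted p = 0.495, edgeR). 11-Sep (chromosome 5, 93093437 to 93176447) had 155, 132 and 109 CPM against 174, 121 and 168 CPM, a log2 fold change of 0.22 (standard error 0.18, adjusted p = 0.362, edgeR). For both genes the spread within a group was as wide as the distance between the means. 6-Sep (chromosome X, 36911326 to 36991794) was the scarcest of the subgroup, at 11.4, 10.2 and 7.56 CPM with vehicle and 13.8, 14.3 and 8.87 CPM with RGS (log2 fold change 0.34, standard error 0.31, adjusted p = 0.431, edgeR). An antisense gene, Gm15008, shares 308 of its 9882 exonic bases and had 0 to 5 counts.

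In the SEPT2 subgroup, 4-Sep fell and 5-Sep carried most of the counts. 4-Sep encodes a septin best known from the sperm tail and the brain, and 1 of its isoforms, ARTS, from apoptosis. It (ENSMUSG00000020486.18, chromosome 11, 87568903 to 87590539, plus strand) was counted 111, 114 and 143 times with vehicle and 5, 7 and 28 times with RGS, or 3.17, 4.06 and 6.15 CPM against 0.237, 0.527 and 1.71 CPM. RGS replicate 12 was the highest of its group and still below every vehicle tumor. 4-Sep fell by 2.43 on the log2 scale (standard error 0.75, adjusted p = 0.0173, edgeR). The call was lost without vehicle replicate 9 (log2 fold change -2.13, adjusted p = 0.0892, edgeR). It was close to the threshold without vehicle replicate 8 (adjusted p = 0.0475, edgeR) or RGS replicate 10 (adjusted p = 0.0485, edgeR). Without RGS replicate 12 the log2 fold change was -3.60 (adjusted p = 0.00181, edgeR). Another gene on its strand, Gm11492, shares 45 of its 3563 exonic bases.

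5-Sep, known for its part in exocytosis in neurons and platelets (ENSMUSG00000072214.7, chromosome 16, 18620502 to 18629954, minus strand), had 48.4, 42.6 and 41.2 CPM with vehicle and 57.9, 46.3 and 43.8 CPM with RGS. The groups overlapped (log2 fold change 0.16, standard error 0.18, adjusted p = 0.532, edgeR). Of its 3915 exonic bases, 3277 also belong to Gp1bb or Gm49601, which lie on its strand. Gm49601 had 25 to 52 counts per tumor, and no row of counts was found under the identifier of Gp1bb. How reads on shared bases were counted is not given in the sources used here, so the level of 5-Sep is uncertain.

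2-Sep, a core septin found in most cell types (ENSMUSG00000026276.20, chromosome 1, 93478964 to 93510260, plus strand), had the lowest level per length of the 9 genes in every tumor except RGS replicate 10, where 4-Sep was lower. It was counted 75, 46 and 99 times with vehicle and 48, 7 and 19 times with RGS, or 2.14, 1.64 and 4.25 CPM against 2.27, 0.527 and 1.16 CPM. These values overlapped (log2 fold change -1.001, standard error 0.78, adjusted p = 0.355, edgeR). GENCODE M21 annotates a further gene of the same name and strand over this span (ENSMUSG00000116048.1, 93478993 to 93509733), which shares 3335 of its 7979 exonic bases and 1101 of its 1173 coding bases. No row of counts was found under that identifier, and the effect of the shared bases on the count was not tested. The low count of 2-Sep therefore cannot be read as a low level of SEPT2 RNA.

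Levels can be compared between genes only per length, here as CPM per kilobase of the table's gene length. With vehicle the order by mean was 7-Sep (38.0 ± 8.76), 9-Sep (33.9 ± 9.86), 8-Sep (30.8 ± 4.32), 10-Sep (21.3 ± 5.34), 11-Sep (13.96 ± 2.43), 5-Sep (11.3 ± 0.970), 4-Sep (1.25 ± 0.429), 6-Sep (0.982 ± 0.199) and 2-Sep (0.336 ± 0.174, SD, n = 3 each). The values of the first 3 genes overlapped, as did those of 10-Sep and 11-Sep, of 11-Sep and 5-Sep, and of 4-Sep and 6-Sep. With RGS, 9-Sep came first at 80.6 ± 6.57 and stood apart from 8-Sep at 27.8 ± 1.24 CPM per kilobase. 7-Sep (17.1 ± 0.800), 11-Sep (16.3 ± 3.06) and 5-Sep (12.6 ± 1.93) followed, each overlapping the next, and then 10-Sep (5.19 ± 0.792), 6-Sep (1.25 ± 0.303), 4-Sep (0.232 ± 0.219) and 2-Sep (0.165 ± 0.111). Per kilobase of the 638 bases that 5-Sep shares with no other gene, its mean would be 69.1 with vehicle and 77.3 with RGS, so its place in the order is not settled.

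**Figure D2:**
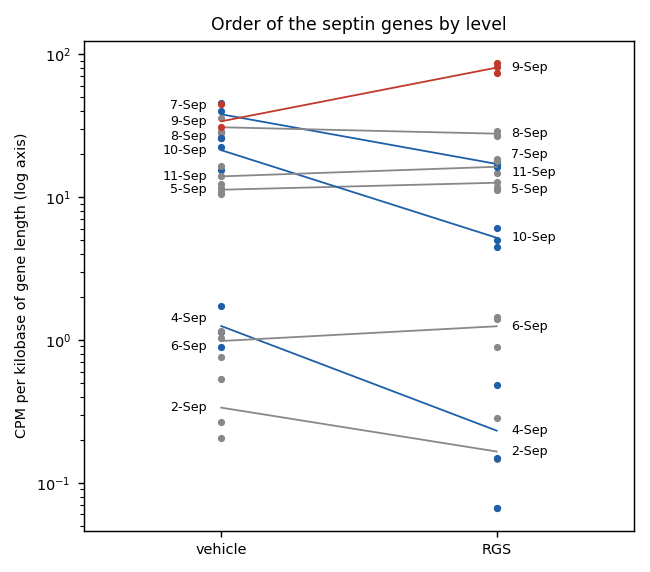
CPM per kilobase of gene length (log axis) of the 9 septin genes, with 1 point per tumor and lines between the means of the vehicle and RGS groups. Red marks 9-Sep and blue 4-Sep, 7-Sep and 10-Sep, and 9-Sep moves from 33.9 to 80.6 while 7-Sep moves from 38.0 to 17.1.

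The summed level of the 9 septins was similar in size in both groups, and within it the share of 9-Sep was higher and that of 7-Sep lower in every RGS tumor. The sum was 156, 149 and 151 CPM per kilobase with vehicle and 173, 157 and 153 with RGS, a difference in means of 9.35 with overlapping groups (exact permutation test, two-sided, p = 0.2). 9-Sep made up 28.9%, 20.6% and 17.3% of the sum with vehicle and 50.1%, 51.8% and 48.0% with RGS. The share of 7-Sep was 18.2%, 26.9% and 30.2% with vehicle and 9.38%, 10.9% and 11.6% with RGS. The SEPT6 subgroup held 44.2 ± 0.145% with vehicle and 31.3 ± 1.58% with RGS (SD, n = 3 each), and the SEPT2 subgroup 8.46 ± 0.237% and 8.04 ± 0.610%, the only one of these 4 shares to overlap. Within the SEPT6 subgroup, 10-Sep fell from 31.9 ± 8.53% to 10.3 ± 1.12%, 8-Sep went from 45.9 ± 5.35% to 55.1 ± 2.96% and 11-Sep from 20.8 ± 3.24% to 32.1 ± 4.10%. None of these groups overlapped, but with 3 tumors against 3 the exact permutation test cannot go below p = 0.1, and over the 11 shares tested the smallest adjusted p was 0.122. The sizes depend on the length used. The sum also includes 5-Sep and 2-Sep, whose counts are uncertain because of bases shared with other genes. Per kilobase of unshared bases, 5-Sep would average 69.1 with vehicle and 77.3 with RGS. With unshared length for all genes, the share of 9-Sep differed by 19.6 percentage points instead of 27.7. The SEPT6 subgroup differed by -12.8 percentage points, but by -5.51 with counts not divided by length and by -3.28 with coding length, the share of 8-Sep by 9.27, 0.988 and 0.732 points and that of 10-Sep by -21.6, -12.4 and -12.7 points. With coding length the summed level turned from higher to lower with RGS (-0.0241 as log2 of RGS over vehicle). These shares use the same counts as the fold changes above and are no separate evidence.

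**Figure D3:**
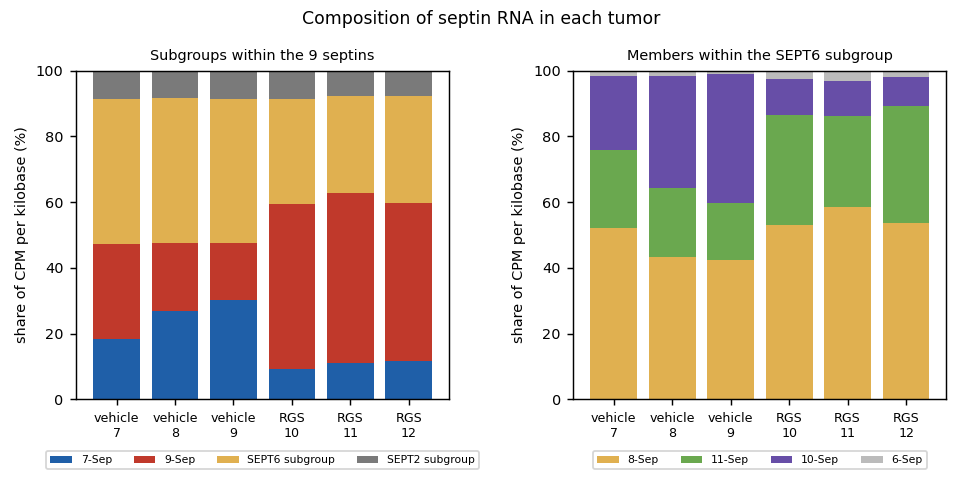
Share of septin RNA (% of CPM per kilobase of the table's gene length) in each tumor, as stacked bars that sum to 100. Subgroups are on the left and members within the SEPT6 subgroup on the right. The sizes of the shares depend on the length used. 9-Sep holds 48.0% to 51.8% of the total in the RGS tumors and 17.3% to 28.9% in the vehicle tumors, and 10-Sep holds less of its subgroup in every RGS tumor.

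The ratio of 9-Sep to 7-Sep per length, a pair picked after its values had been seen and so given without a test, was 1.59, 0.768 and 0.573 in the vehicle tumors and 5.35, 4.75 and 4.13 in the RGS tumors. Vehicle replicate 7, the deepest library, had the highest 9-Sep and the lowest 7-Sep, 10-Sep and 4-Sep of its group.

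Of the septin rows left out of the 9, 1-Sep, which is known from lymphocytes, had 0.713, 1.39 and 0.645 CPM with vehicle and 0.568, 1.28 and 2.45 CPM with RGS, with overlapping groups (log2 fold change 0.64, standard error 0.99, adjusted p = 0.665, edgeR). Zfp553 on the opposite strand shares 70 of its 2763 exonic bases and had 463 to 1053 counts. 3-Sep had 0 to 11 counts per tumor (log2 fold change -0.42, adjusted p = 0.864, edgeR), 12-Sep 0 to 2 and 14-Sep 0 to 13, and neither of the last 2 passed the filter.

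Among 18 genes of proteins that bind or act with septins, 4 rose, 4 fell and 10 did not pass the threshold with a median of -0.01 on the log2 scale. The share called over all tested genes was 16.3% higher and 16.5% lower, so the counts of partners are near that background. Without vehicle replicate 7, 7 of them rose. The Cdc42ep genes encode the Borg proteins, which bind septins and are effectors of the GTPase CDC42, and all 5 passed: 4 rose and Cdc42ep3 fell. Cdc42ep2 went from a mean of 18.8 ± 0.904 CPM to 45.2 ± 5.23 CPM (SD, n = 3 each), or 1.27 on the log2 scale (adjusted p = 7.46e-05, edgeR). For Cdc42ep1 the means were 60.2 ± 9.46 and 135 ± 19.9 CPM, or 1.16 on the log2 scale (adjusted p = 5.17e-05, edgeR). Cdc42ep4 and Cdc42ep5 had log2 fold changes of 1.07 and 0.96, and Cdc42ep3 of -0.75 (adjusted p = 0.00342, edgeR). Cdc42 itself averaged 389.7 ± 16.8 CPM in vehicle tumors and 335 ± 34.3 CPM in RGS tumors (log2 fold change -0.22, adjusted p = 0.283, edgeR). The other genes that fell were Anln, Cenpe and Cit.

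Anln encodes anillin, the scaffold that links septins to actin and myosin in the cleavage furrow. It had 236, 210.4 and 181 CPM with vehicle and 43.7, 30.6 and 27.9 CPM with RGS, and fell by 2.62 on the log2 scale (standard error 0.19, adjusted p = 9.89e-09, edgeR). Cenpe, a kinetochore motor reported to bind SEPT7, fell by 1.55, and Cit, the citron kinase of the midbody, fell by 1.07. Among 15 genes of cytokinesis, which include Anln and Cit, 13 fell and none rose (median log2 fold change -1.74), beside 16.5% lower and 16.3% higher over all tested genes, and with Anln the largest decrease was that of Kif14 (-2.40). The 4 proliferation markers, summed, lay between 449.8 and 490.2 CPM with vehicle and between 173 and 216 CPM with RGS, and all 4 fell. Their part in the lower septin genes was not tested. Values for RhoA signaling and myosin were Rhoa -0.34, Rock1 0.41, Rock2 -0.10, Myh9 0.08 and Myh10 -0.43 on the log2 scale, and those for further partners Map4 0.31, Stx1a 0.09, Xiap 0.41 and Siah1a -0.10, and no gene of these 9 passed the threshold.

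**Figure D4:**
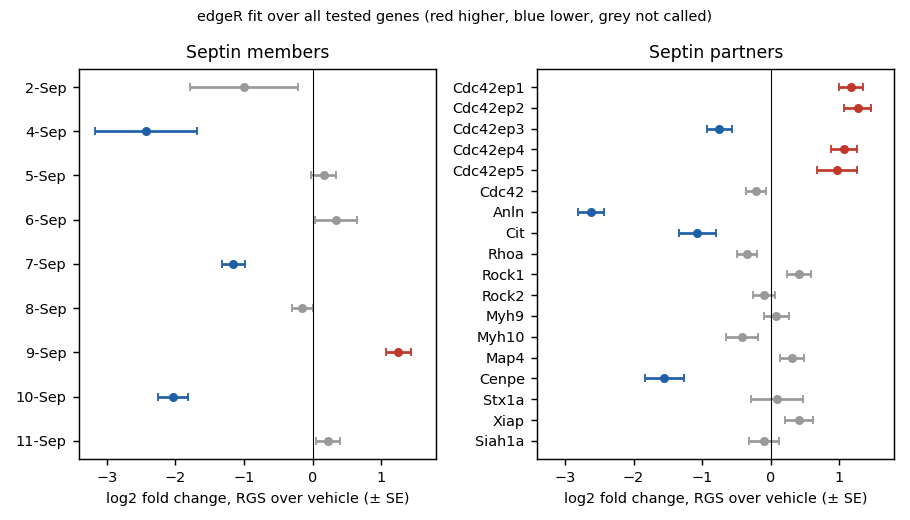
Log2 fold change (RGS over vehicle, with its standard error) of the 9 septin genes on the left and 18 septin partner genes on the right, from the edgeR fit over all tested genes. Red points passed the threshold as higher, blue as lower and grey did not pass, and Anln (-2.62) and 10-Sep (-2.03) lie on the lower side while 9-Sep (1.25) and 4 of the 5 Cdc42ep genes lie on the higher side.

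Other cytoskeletal families and the exocyst were counted in the same fit, where 32.8% of all tested genes were called, 16.3% higher and 16.5% lower. Of 12 tubulin genes tested, 8 rose and none fell (median log2 fold change 1.07), led by Tubb2b (2.24) and Tuba4a (1.70). With each tumor left out, 7 to 9 tubulins rose. Of 15 actin and myosin genes 3 rose and 2 fell (Myl9 and Acta2, -2.73 and -2.28), of 7 genes of intermediate filaments and lamins 2 passed as higher (Nes at 1.66, and Des) and 2 fell, and of the 8 exocyst genes Exoc3 rose (0.63) and 2 fell, Exoc6 by 2.74. The list of intermediate filaments and lamins held no keratin or neurofilament gene, so its counts do not describe the whole family. Des had 0 counts in every vehicle tumor and 24, 5 and 5 with RGS, so it entered the test only through the group where it was higher. These last counts were unstable, and with each tumor of either group left out in turn they ran from 1 to 5 higher and 1 to 3 lower for actin and myosin, 1 higher and 1 to 2 lower for intermediate filaments, and from 0 to 1 and 1 to 3 for the exocyst. The actin and myosin and exocyst counts are near the share over all genes. Differences between these families and the septins were not tested.

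The marker lists of other cells that were measured beside the septins had mostly low summed levels. Over all tested genes, 16.3% were called higher and 16.5% lower. In CPM over the list, vehicle and RGS tumors had 4.94 to 7.67 and 4.53 to 12.7 for 8 melanocyte genes (0 of 2 tested called), 0.770 to 3.61 and 0.757 to 2.48 for 6 T cell genes (0 of 1), at most 0.314 and 0.473 for 4 B cell genes (none tested), and 58.8 to 64.7 and 65.4 to 88.2 for 8 macrophage genes (0 of 1). They had 0.945 to 1.198 and 3.24 to 11.2 for 5 endothelial genes (1 of 3 higher), 0.399 to 1.76 and 6.72 to 20.97 for 6 keratinocyte genes (1 of 2 higher, with Krt1 at 0), 8.30 to 11.01 and 4.401 to 12.1 for 5 platelet genes (0 of 2), 29.1 to 33.7 and 77.1 to 115 for 5 neuron and Schwann cell genes (1 of 3 higher), and 2.88 to 4.42 and 1.36 to 2.46 for 4 skeletal muscle genes (0 of 1). The 6 fibroblast genes summed to 375 to 572 and 276 to 305 CPM (1 of 5 higher, 3 lower, with Lum at 0). The 4 leukocyte genes summed to 187 to 248 and 919 to 1028 CPM with both tested genes higher. Of the untested genes, Ptprc was at 0 and Coro1a had 0 to 20 counts per tumor. The keratinocyte call was Ivl, which had 0 counts in every vehicle tumor and 124, 151 and 321 with RGS, entered the test only through the RGS group and made up most of the RGS sum. Cd68 made up nearly all of the macrophage sum (means of 62.5 and 74.0 CPM). No other gene of that list had more than 7 counts in any tumor, and none passed the filter. Tubb3, the gene called in the neuron list, is also in the tubulin list. The part of these cell types in the septin changes was not tested.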

How the data were processed

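RNA from 6 YUMM3.3 tumors (3 vehicle, 3 RGS at 300 mg/kg) was sequenced by the authors, who deposited raw read counts per gene, without normalization, and the gene length in bases. The submitters' processing notes name cutadapt 1.18, FastQC 0.11.7, STAR 2.7.1a, featureCounts 1.6.4 and the build mm10, and strand and multi-gene settings are not given in the sources used here. Of the 40166 identifiers, 38927 are in GENCODE M21 (GRCm38). The 15355 genes whose median count reached 5 in either group were fitted in R 4.3.3 with edgeR 4.0.16 (TMM factors of 0.920 to 1.08, quasi-likelihood F test, Benjamini-Hochberg over all of them). Standard errors were obtained by dividing the size of the log2 fold change by the square root of F, and CPM use TMM-scaled totals. Libraries of the same group had a Spearman's rho of at least 0.970 across genes. The chi-square per degree of freedom between any 2 of them was at least 18.5, so they differed by more than counting error. Each was treated as a replicate, although this check cannot show that each came from its own mouse.

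The members and the gene lists, written from memory, were chosen with earlier results of these data known. The named genes were the septins, all tested partners, genes overlapping a septin and up to 2 genes of each other list. Exons and start sites came from GENCODE M21 and RefSeq. Alternatives were DESeq2 1.42.0, limma 3.58.1 (voom), 3 other scalings, robust dispersions, 2 other filters, mitochondrial genes left out, thinning to the smallest library, each tumor left out, and other lengths. The scripts were tested on simulated data.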

Additional observations from a re-analysis of the deposited data

How the results depend on the processing

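In 16 alternative fits (other scalings, filters, tools, thinning to the smallest library and each tumor left out), 143 of 144 septin log2 fold changes kept their direction and their side of the threshold. The exception was 4-Sep without vehicle replicate 9 (-2.13). 1 septin was called higher in all 16 fits and 2 to 3 lower. Log2 fold changes ranged from 1.09 to 1.503 for 9-Sep (adjusted p from 5.51e-12 to 9.87e-04), from -1.33 to -1.0005 for 7-Sep (adjusted p from 1.70e-10 to 0.00187), from -2.22 to -1.86 for 10-Sep (adjusted p from 4.39e-20 to 6.50e-05) and from -3.60 to -1.97 for 4-Sep (adjusted p from 0.00181 to 0.0892, edgeR, DESeq2 or limma). Of the septin partners, 3 to 7 were higher (7 without vehicle replicate 7) and 4 to 5 lower.

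Shares depend on the length used, since length sets each gene's weight. As RGS minus vehicle in percentage points, counts not divided by length gave -5.51 for the SEPT6 subgroup, -22.2 for 7-Sep, and within subgroups -2.75 for 2-Sep, 0.988 for 8-Sep and -12.4 for 10-Sep. Coding length, chosen after seeing the data, gave -3.28, -22.3, -2.99, 0.732 and -12.7 for these, reversed the SEPT2 subgroup (0.172) and the summed level (-0.0241 as log2 of RGS over vehicle). Length not shared with another gene, also added later, gave 0.636 for the SEPT2 subgroup (reversed), -9.49 for the SEPT6 subgroup, 19.6 for 9-Sep, -1.49 for 4-Sep and 1.96 for 5-Sep. The vehicle order differed from that reported at 4 places without length, 4 with coding length, 6 with unshared length and 0 to 4 with a vehicle tumor left out (4 without replicate 9). With each tumor left out, the log2 ratio of 9-Sep to 7-Sep was 2.01 to 2.82 higher with RGS. Coding length from RefSeq proteins was not run. At 5 to 143 counts, depth limits 2-Sep and 4-Sep. No paired analysis was possible because the groups share no replicate number.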

Other observations

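The change of names into dates touched a second gene family. Of the 26 rows with such a name, 13 were septins and 13 were named as March dates, and 2 of the names (1-Mar and 2-Mar) each stood for 2 rows, 4 rows in all, which the name alone cannot tell apart. Each septin date stood for a single row.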
